A study of Homo sapiens with 24 samples.

Results

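Transcripts of 41 centromere and kinetochore genes were followed through CDK4/6 inhibition in breast cancer cells. The genes were taken from a list of centromere proteins (CENP), outer kinetochore complexes and factors that load CENPA, and all 41 were found among the 59609 gene symbols of the count table. Expression was measured by 3′ RNA-seq, in which reads come from the ends of polyadenylated transcripts, in 2 wild-type ER-negative lines of breast cancer. The mesenchymal line MDA-MB-231 and the epithelial line MDA-MB-453 were each treated for 5 days with DMSO, with 500 nM of the CDK4/6 inhibitor abemaciclib, with 5 nM of the selective estrogen receptor degrader fulvestrant, or with both drugs (the combination). Per the study, MDA-MB-231 was grown in RPMI medium and MDA-MB-453 in DMEM medium. Each of the 8 groups had 3 libraries. The study describes them as independent biological replicates within a single experiment, so that p-values measure the spread within that experiment.

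A centromere is marked by nucleosomes that hold the histone H3 variant CENPA. On these sits the constitutive centromere-associated network (CCAN), and on the CCAN the outer kinetochore assembles in mitosis, binds microtubules and signals to the spindle checkpoint. Many of these genes are transcribed mainly in late S and G2 phase, when proteins of the retinoblastoma family no longer hold E2F and DREAM target genes silent. CDK4/6 inhibitors keep the retinoblastoma protein active. Others are transcribed in most cells whether or not they divide. By this general knowledge 29 members were classed as cell cycle dependent and 12 as constitutive, of which 23 and 6 were placed with more certainty. The classes were written with earlier results of these data known, so the contrast between them is a description and no independent test. The constitutive members were CENPB, CENPC, CENPP, CENPS, CENPT, CENPV, CENPX, MIS12, NSL1, PMF1, SKA2 and ZW10.

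Libraries held 2873558 to 4158762 counts. Levels are given in CPM, the count of a gene scaled to a common library total, and are compared only within a gene. Where a group held no counts, 3 counts over its libraries served as floor. Markers fitted the line labels. VIM lay between 1400 and 2009 CPM and CD44 between 233 and 290 CPM in the 12 MDA-MB-231 libraries, and both were at 0 in all 12 MDA-MB-453 libraries. ERBB2 lay between 222 and 468 CPM in MDA-MB-453, against at most 32.2 CPM in MDA-MB-231. FOXA1, a luminal marker, lay between 165 and 213 CPM in MDA-MB-453. ESR1, which encodes the target of fulvestrant, did not exceed 1.37 CPM in MDA-MB-231 or 2.19 CPM in MDA-MB-453. The mitochondrial share of the counts in MDA-MB-231 was 8.83% ± 0.213 (SD, n = 3) with DMSO and 12.2% ± 1.05 with abemaciclib, and in MDA-MB-453 it was 15.2% ± 0.65 and 23.8% ± 1.91.

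Under abemaciclib most members fell in both lines, and 23 of 29 cell cycle dependent members fell further in MDA-MB-453 by the test of the line difference, which 1 of 12 constitutive members, CENPS, passed. In that test 13.0% of all 12750 genes were called lower in MDA-MB-453 and 20.7% in either direction. In MDA-MB-453, 33 of 40 members tested were lower than under DMSO and 0 were higher, where 19.4% of all 11080 genes tested were called lower and 36.0% were called in either direction (called at a p of edgeR's quasi-likelihood test below 0.05 after Benjamini-Hochberg adjustment over the whole table). In MDA-MB-231, 31 of 41 members were lower and 0 were higher, where 16.9% of 11314 genes were called lower and 33.7% in either direction. The median log2 fold change of the cell cycle dependent members was -3.51 in MDA-MB-453 and -0.83 in MDA-MB-231. That of the constitutive members was -0.45 and -0.55, while the median of all genes tested lay at 0 in both lines. Of the constitutive members tested, 6 of 11 were called lower in MDA-MB-453 and 7 of 12 in MDA-MB-231. Of the cell cycle dependent members, 27 of 29 and 24 of 29 were. With mitochondrial genes left out, 33 and 30 members were lower in MDA-MB-453 and MDA-MB-231. In bulk libraries, fewer cells in the phases that transcribe a gene and less RNA per cell cannot be told apart.

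**Figure D1:**
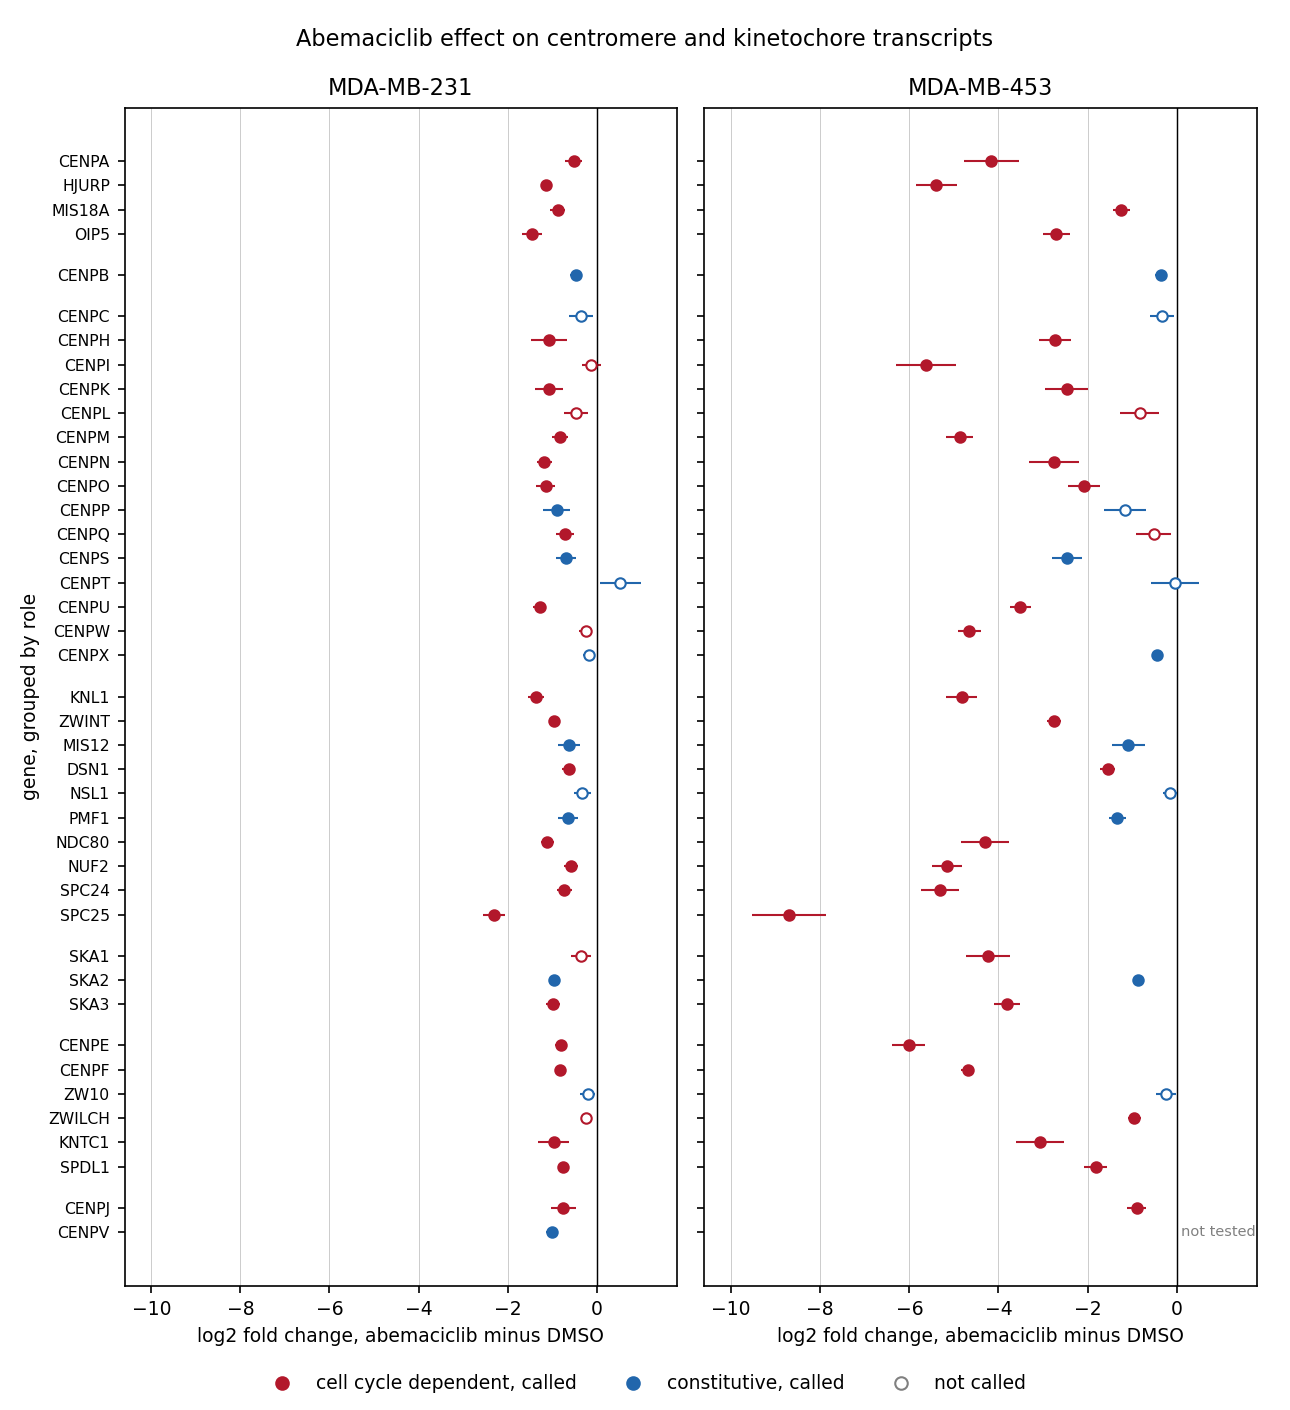
Log2 fold change of each member under abemaciclib minus DMSO, with its standard error as a bar, in MDA-MB-231 (left) and MDA-MB-453 (right). Genes are grouped by role from CENPA and its loading factors at the top to CENPJ and CENPV at the bottom, red marks cell cycle dependent and blue constitutive members, and filled points passed the test. In MDA-MB-453 the cell cycle dependent members reach -8.70 at SPC25, a fitted value for a gene at 0 counts under the drug. Of the constitutive members, CENPB, CENPC, CENPT, NSL1 and ZW10 lie between -0.35 and -0.04. The other constitutive members tested lie lower, down to -2.46 at CENPS, and 6 of 11 in the class were called lower. In MDA-MB-231 SPC25 has the lowest value, -2.31, and CENPV was tested in this line only.

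The classes separated within single libraries of MDA-MB-453. The summed counts of the 29 cell cycle dependent members were 2.04 ± 0.0744 (SD, n = 3) times those of the 12 constitutive members under DMSO, with libraries between 1.98 and 2.13. Under abemaciclib this ratio was 0.431 ± 0.039, with libraries between 0.391 and 0.469, and under the combination it was 0.41 ± 0.0295. In MDA-MB-231 it was 2.82 ± 0.114 under DMSO and 2.55 ± 0.25 under abemaciclib, and the libraries of both groups overlapped, at 2.76 to 2.96 and 2.31 to 2.81. Both sums fell there: the cell cycle dependent sum went from 2316 ± 47.8 to 1315 ± 82.0 CPM and the constitutive sum from 821 ± 23.2 to 518 ± 18.5 CPM. In MDA-MB-453 the former fell from 1275 ± 45.3 to 168 ± 20.7 CPM, the latter from 624 ± 10.6 to 390 ± 29.4 CPM. The sums are weighted to the members with the most counts and carry no test.

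**Figure D2:**
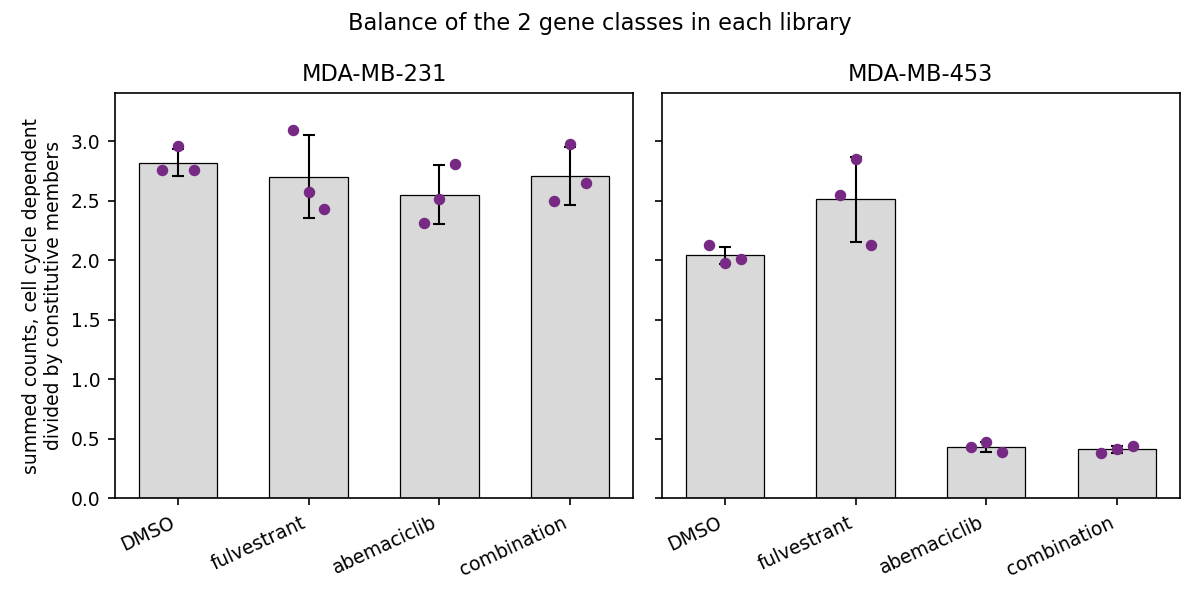
Summed counts of the cell cycle dependent members divided by those of the constitutive members, for each treatment in MDA-MB-231 (left) and MDA-MB-453 (right). Bars are means, error bars are SD (n = 3) and points are libraries. Only in MDA-MB-453 do the abemaciclib and combination libraries lie apart from DMSO, at 0.38 to 0.469 against 1.98 to 2.13.

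CENPA and the factors that place it were all lower under abemaciclib in both lines. CENPA lay at 34.1, 38.3 and 39.4 CPM under DMSO in MDA-MB-231 and at 21.0, 28.3 and 28.5 CPM under abemaciclib. In MDA-MB-453 it lay at 15.5, 7.66 and 9.69 CPM under DMSO and at 0.506, 1.09 and 0 CPM under abemaciclib, 6 counts over the group. The groups overlapped in neither line. Under abemaciclib, 44.1% of all genes tested in the mesenchymal line and 44.9% in the epithelial line likewise did not overlap with DMSO. The log2 fold change of CENPA was -0.52 ± 0.19 (SE, adjusted p = 0.0287) in the former and -4.16 ± 0.61 (adjusted p = 2.67e-07) in the latter. In MDA-MB-231 the CENPA call was lost without abemaciclib replicate 1 (-0.40), without DMSO replicate 2 (-0.50) or 3 (-0.48), with DESeq2 and with no filter on low counts. The gene is on chromosome 2 at 26764289-26801067 (GRCh38, plus strand).

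HJURP, the chaperone that deposits CENPA, lay at 22.8, 32.0 and 34.9 CPM under DMSO in MDA-MB-453 and at 0, 1.92 and 0 CPM under abemaciclib. It fell by 5.40 ± 0.46 on the log2 scale (adjusted p = 1.84e-13), the largest called change of this role in that line. In MDA-MB-231 HJURP went from 95.1, 97.8 and 121 CPM to 44.9, 45.9 and 52.9 CPM, a log2 fold change of -1.13 ± 0.13 (adjusted p = 6.16e-09). All treated libraries lay below those of DMSO, and 2 of 3 held no HJURP counts in MDA-MB-453. OIP5, which encodes a subunit of the Mis18 complex that licenses centromeres for new CENPA, had the largest change of the role in MDA-MB-231. It lay at 41.2, 30.4 and 40.3 CPM under DMSO and at 15.0, 9.42 and 16.2 CPM under abemaciclib (log2 fold change -1.45 ± 0.23, adjusted p = 1.97e-06), with no overlap. Genes on the other strand, among them NUSAP1, overlap its exon bases, the largest share of a single gene being 63.2%. Since the strand used in counting is not stated, the OIP5 counts are uncertain. MIS18A, the partner of OIP5, had values of -0.88 ± 0.17 in MDA-MB-231 and, for the other line, -1.24 ± 0.19, both called.

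CENPB, which binds a sequence box in alpha-satellite DNA, fell little. In MDA-MB-231 it lay at 73.5, 86.7 and 88.8 CPM with DMSO against 59.9, 57.1 and 63.6 CPM with abemaciclib. In MDA-MB-453 it lay at 105, 90.3 and 109 CPM against 70.1, 85.7 and 69.1 CPM. All treated libraries were below the DMSO libraries in each line. Of all genes tested, 22.4% likewise lay wholly below DMSO in the mesenchymal line and 27.6% in the epithelial line. Both CENPB differences passed the test, at -0.46 ± 0.14 (adjusted p = 0.0067) and -0.35 ± 0.13 (adjusted p = 0.0254). In MDA-MB-453 the CENPB call was lost without DMSO replicate 1 (-0.33) or 3 (-0.29), without abemaciclib replicate 1 (-0.28) or 3 (-0.32), and with DESeq2. The difference between the lines in the CENPB effect was 0.12 ± 0.19 (adjusted p = 0.764).

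**Figure D3:**
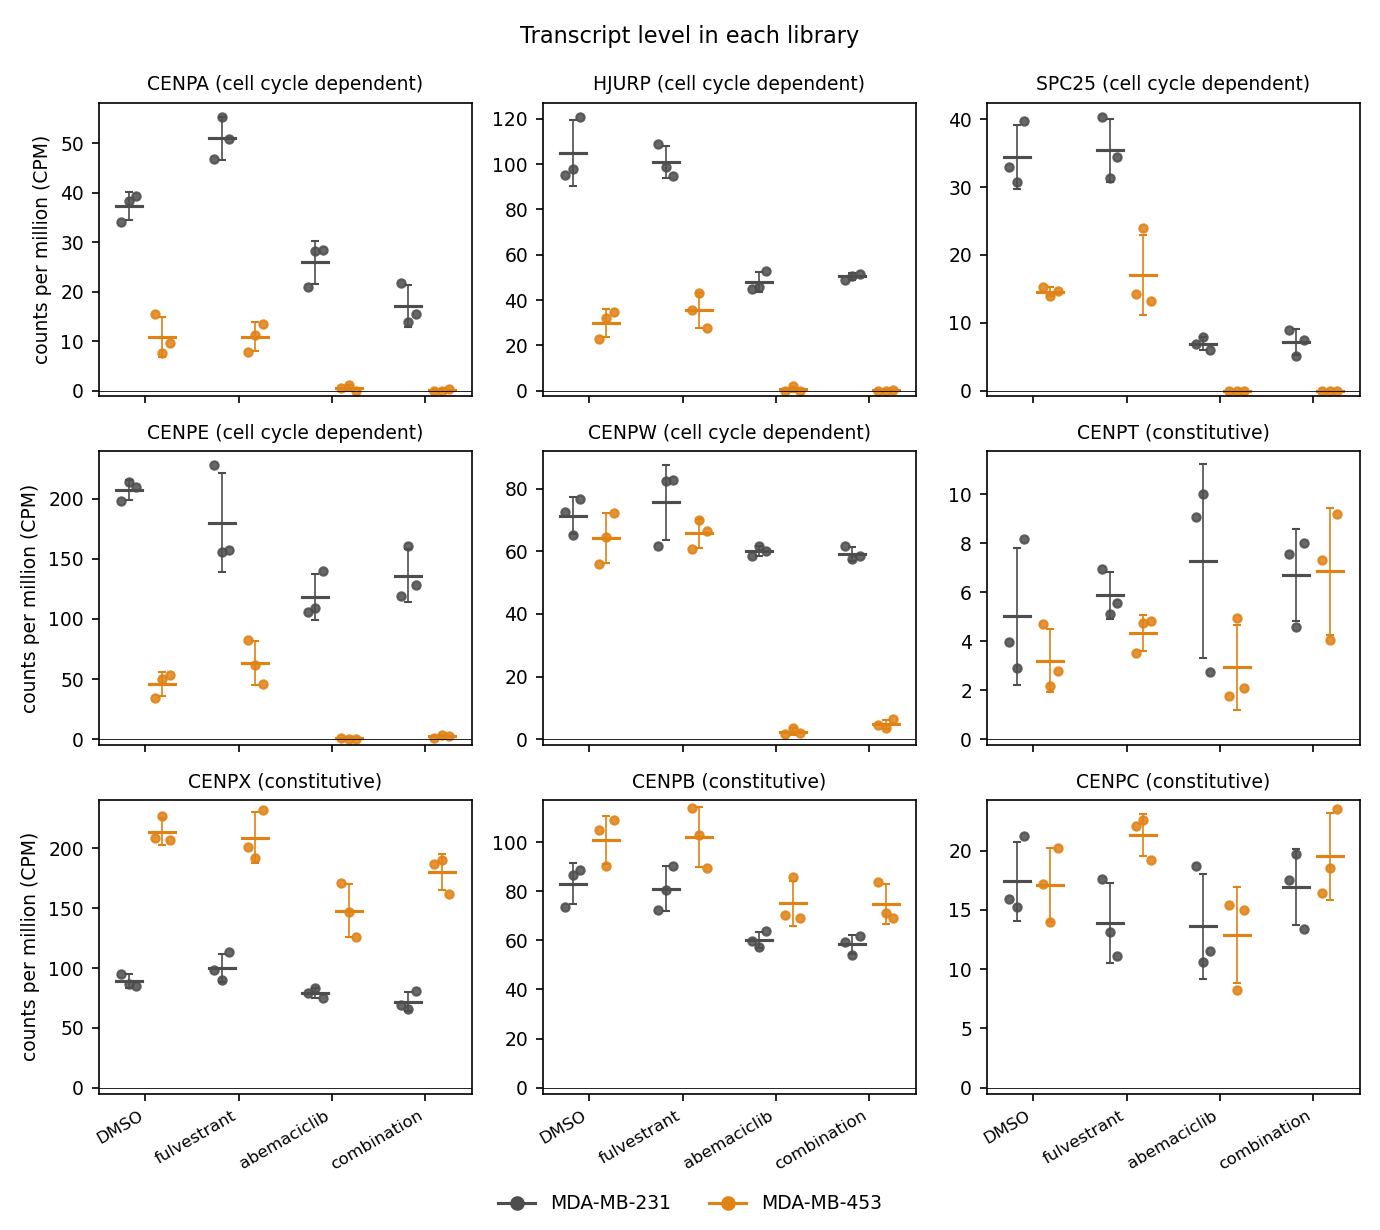
Level in CPM of 9 members in every library, by treatment on the horizontal axis, in MDA-MB-231 (grey) and MDA-MB-453 (orange). Points are libraries, long bars are means and error bars are SD (n = 3), on axes that differ between genes. CENPA, HJURP, SPC25, CENPE and CENPW lie near 0 under abemaciclib and the combination in MDA-MB-453, while CENPX, CENPB and CENPC do not. CENPT is low in all groups of that line, at 2.19 to 4.68 CPM under DMSO and 1.77 to 4.93 CPM under abemaciclib.

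Subunits of the CCAN did not move as a block. In MDA-MB-453, 10 of the 15 members of the network were lower under abemaciclib, from -0.45 at CENPX to -5.63 at CENPI, and 9 of 15 were lower in MDA-MB-231. In MDA-MB-453 CENPC, the subunit that links CENPA nucleosomes to the outer kinetochore, lay at 17.2, 14.0 and 20.2 CPM under DMSO and at 15.4, 8.21 and 15.0 CPM under abemaciclib. Its groups overlapped, and its log2 fold change was -0.33 ± 0.26 (adjusted p = 0.335). In MDA-MB-231 CENPC lay at 15.9, 15.2 and 21.2 CPM against 18.7, 10.6 and 11.5 CPM, a log2 fold change of -0.35 ± 0.27 (adjusted p = 0.34).

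The CENPT-CENPW-CENPS-CENPX complex, whose subunits carry histone folds and pair with each other on DNA, held subunits 4.62 apart on the log2 scale under abemaciclib in MDA-MB-453. CENPW lay at 56.1, 64.6 and 72.3 CPM under DMSO in MDA-MB-453 and at 1.52, 3.56 and 2.10 CPM under abemaciclib, a log2 fold change of -4.66 ± 0.26 (adjusted p = 8.31e-20). Its direct partner CENPT lay at 4.68, 2.19 and 2.77 CPM against 1.77, 4.93 and 2.10 CPM (log2 fold change -0.04 ± 0.54, adjusted p = 0.966). CENPT held 34 and 32 counts over these groups, and its standard error leaves changes of about 1 on the log2 scale undetectable. CENPS went from 29.2, 28.5 and 22.2 CPM to 7.34, 1.09 and 5.11 CPM (-2.46 ± 0.33, adjusted p = 4.39e-08), whereas its partner CENPX went from 209, 227 and 207 CPM to 171, 147 and 126 CPM (-0.45 ± 0.10, adjusted p = 0.000413). CENPS shares 65.0% of its exon bases with a read-through gene, CENPS-CORT, on the same strand, so its counts are uncertain.

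In MDA-MB-231, 1 of the 4 subunits of this complex was lower. CENPW lay at 72.5, 65.1 and 76.7 CPM under DMSO and at 58.5, 61.7 and 60.0 CPM under abemaciclib. Its log2 fold change of -0.25 ± 0.14 did not pass the test (adjusted p = 0.171). Its groups did not overlap, as was so for 44.1% of all genes tested in this line. CENPT lay at 3.96, 2.92 and 8.18 CPM against 9.08, 10.0 and 2.74 CPM (0.53 ± 0.46, adjusted p = 0.4). CENPS passed the test in this line, at -0.69 ± 0.23 (adjusted p = 0.0182), a call that was lost without DMSO replicate 1 (-0.64) or 3 (-0.60) or abemaciclib replicate 2 (-0.57). The difference between the lines in the CENPW effect was -4.40 ± 0.29 (adjusted p = 8.02e-17).

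CENPI, a subunit of the CENPH-CENPI-CENPK-CENPM complex that is needed to load CENPA, also divided the lines. In MDA-MB-453 it lay at 11.7, 6.57 and 15.5 CPM under DMSO and at 0, 0.274 and 0.301 CPM under abemaciclib. With 120 and 2 counts over the groups, its level under DMSO was 61.4 times that under abemaciclib (95% counting interval 16.6 to 513). The fitted log2 fold change of CENPI was -5.63 ± 0.68 (adjusted p = 4e-09). In MDA-MB-231 CENPI lay at 28.7, 22.8 and 26.1 CPM against 25.3, 22.5 and 23.3 CPM, overlapping groups with a log2 fold change of -0.12 ± 0.21 (adjusted p = 0.705). The other subunits of the complex, CENPH, CENPK and CENPM, fell in both lines, with values from -1.07 to -0.83 in MDA-MB-231 and, further down, from -4.87 to -2.47 in MDA-MB-453. The MDA-MB-231 call of CENPH was lost without DMSO replicate 2 (-0.42) and without abemaciclib replicate 1 (-0.84) or 2 (-1.01), and that of CENPK without abemaciclib replicate 1 (-0.86).

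CENPU, which brings the kinase PLK1 to kinetochores, had the largest called change of the CCAN in MDA-MB-231. Its levels were 127, 121 and 136 CPM under DMSO and 55.4, 52.6 and 49.6 CPM under abemaciclib (-1.28 ± 0.14, adjusted p = 4.99e-10). In MDA-MB-453 they were 42.4, 47.3 and 50.1 CPM against 2.78, 4.93 and 3.91 CPM (-3.51 ± 0.24, adjusted p = 1.39e-16). The groups were apart in both lines. Within its CENPO-CENPP-CENPQ-CENPU complex, CENPO fell in both lines, at -1.15 and -2.08, while CENPP and CENPQ passed the test under abemaciclib in MDA-MB-231 only, at -0.90 and -0.71. Genes on the other strand overlap exon bases of CENPP, CENPO and CENPU, with largest single shares of 39.9%, 27% and 14.9%. With the strand used in counting not stated, these counts are uncertain too. Leaving out any 1 of 4 libraries ended the CENPP call (DMSO replicates 1 and 3, abemaciclib replicates 1 and 2, values from -0.84 to -0.78), and any 1 of 3 ended that of CENPQ (DMSO replicate 2, abemaciclib replicates 1 and 2, values from -0.56 to -0.46). In MDA-MB-453 their values were -1.16 ± 0.48 and -0.52 ± 0.39. The differences between the lines were -0.25 ± 0.52 for CENPP and 0.20 ± 0.43 for CENPQ, with adjusted p of 0.849 and 0.851. CENPN, which reads the CENPA nucleosome, had log2 fold changes of -1.18 and -2.75, and CENPL, its partner, had values of -0.47 ± 0.27 and -0.83 ± 0.44 that did not pass the test.

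Every subunit of the NDC80 complex, the microtubule-binding rod of the outer kinetochore, was lower in both lines. In MDA-MB-453 SPC25 lay at 15.2, 14.0 and 14.7 CPM under DMSO, and 0 counts were found in the 3 abemaciclib libraries and in the 3 combination libraries. Against the floor of 3 counts over the group, it was at least 53.2-fold lower under abemaciclib and at least 49.8-fold lower under the combination. Its fitted log2 fold change of -8.70 depends on the prior count and is no bound (adjusted p = 1.83e-11). In MDA-MB-231 SPC25 went from 32.9, 30.7 and 39.7 CPM to 6.81, 7.90 and 6.03 CPM, a log2 fold change of -2.31 ± 0.25 (adjusted p = 4.46e-10).

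NDC80 lay at 13.2, 10.4 and 13.0 CPM under DMSO in MDA-MB-453, at 0, 0.547 and 1.20 CPM under abemaciclib and at 0 in all 3 combination libraries. It fell by 4.30 ± 0.54 on the log2 scale under abemaciclib (adjusted p = 1.51e-08) and was at least 41.5-fold lower under the combination. In MDA-MB-231 NDC80 went from 104, 78.6 and 85.1 CPM to 49.1, 37.7 and 37.0 CPM (-1.11 ± 0.15, adjusted p = 1.55e-07). Neither line had an abemaciclib library within the DMSO range. SPC24 and NUF2, which pair with SPC25 and NDC80, had log2 fold changes of -5.31 and -5.16 in MDA-MB-453 and of -0.73 and -0.58 in MDA-MB-231.

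Stretches of its promoters are shown because 3 of its 4 genes, SPC25, NDC80 and NUF2, hold a match near the annotated start to the CHR, the cell cycle genes homology region through which the DREAM and B-MYB complexes act. Each stretch of 30 bases is written along the strand of its gene, from RefSeq on GRCh38.p14, and capitals mark TTTGAA or, where the match lies on the other strand, TTCAAA. CENPA, SKA1, SKA3 and CENPF follow as cell cycle dependent members of other roles, and CENPC and ZW10 are the only constitutive members with a match.
SPC25, chr2:168890416-168890445, minus strand: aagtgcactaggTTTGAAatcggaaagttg
NDC80, chr18:2571542-2571571, plus strand: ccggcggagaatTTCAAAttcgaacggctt
NUF2, chr1:163321958-163321987, plus strand: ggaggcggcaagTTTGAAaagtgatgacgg
CENPA, chr2:26786026-26786055, plus strand: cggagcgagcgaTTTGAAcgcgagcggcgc
SKA1, chr18:50375066-50375095, plus strand: ggcgcggcgggcggTTTGAAttttgcttac
SKA3, chr13:21176538-21176567, minus strand: ccggcgccgagaTTCAAActagtggcggga
CENPF, chr1:214603215-214603244, plus strand: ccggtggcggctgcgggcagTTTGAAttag
CENPC, chr4:67545576-67545605, minus strand: tgtgtctccgggTTCAAAcccaggcacagg
ZW10, chr11:113773899-113773928, minus strand: gaagcaacgaacTTTGAAaacaactaagga

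The 7 matches of cell cycle dependent genes printed above begin between 18 bases before and 40 bases after the start, and those of CENPC and ZW10 begin 90 and 224 bases before it. Cell cycle dependent promoters also held matches farther from the start, 111 bases before it in HJURP and, as a further match, 247 bases before it in SPC25. Promoters of 300 bases, 250 before to 50 after the start, were at hand for 34 of the 41 members. On either strand, TTTGAA occurred in 12 of 22 cell cycle dependent promoters (54.5%), in 2 of 12 constitutive ones (16.7%) and in 18.2% of all 27305 promoters. Within 50 bases on either side of the start, a window chosen after the positions were seen, it occurred in 11 of 22 (50%), in 0 of 12 and in 5.77% of all promoters. CCAAT, the box bound by NF-Y, did not set the classes apart, at 63.6% and 58.3% against 39.7% of all promoters. E2F letters (TTTCCCGC, TTTCGCGC, TTTGCCGC or TTTGGCGC) were found in 3 and 2 promoters, 13.6% and 16.7% of the classes, against 3.99% of all promoters. In MDA-MB-453 the 12 cell cycle dependent members with TTTGAA had a median log2 fold change of -4.20 under abemaciclib and the 10 without it -3.10, with ranges of -8.70 to -1.82 and -6.02 to -0.52 that overlapped. In MDA-MB-231 these medians were -0.96 and -0.72. A match is a run of letters and was not tested as a binding site.

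The KMN network, which joins the CCAN to microtubules, holds the NDC80 rod and 2 other complexes. Of its 10 members 9 were lower in each line. KNL1, a scaffold of the spindle checkpoint, had log2 fold changes of -1.37 in MDA-MB-231 and, in the other line, -4.83. Those of its partner ZWINT were -0.95 and -2.76. In the MIS12 complex, which bridges CENPC and the NDC80 rod, 3 of 4 subunits were lower in each line. NSL1 did not pass the test in either line, at -0.32 ± 0.19 in MDA-MB-231 and, for the other line, -0.14 ± 0.16. DSN1 had log2 fold changes of -0.63 and -1.55, PMF1 of -0.64 and -1.33, and MIS12 of -0.63 and -1.09, all called. The MIS12 call in MDA-MB-231 (adjusted p = 0.049) was lost under 11 of 12 alternatives, and without abemaciclib replicate 1 or DMSO replicate 3 the value of MIS12 was -0.37 or -0.51. In MDA-MB-453 the MIS12 call was lost without DMSO replicate 2 or 3 or abemaciclib replicate 1 or 2, with values from -1.0 to -0.83. The MDA-MB-231 call of PMF1 was lost with DESeq2, without DMSO replicate 3 (-0.38) and without either abemaciclib replicate 1 or 2 (both -0.63), and PMF1 shares 23.3% of its exon bases with the read-through gene PMF1-BGLAP. For DSN1 the line difference was called, at -0.91 ± 0.23 (adjusted p = 0.00253). For MIS12, PMF1 and NSL1 it was not, at -0.46 ± 0.44, -0.68 ± 0.31 and 0.19 ± 0.25.

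**Figure D4:**
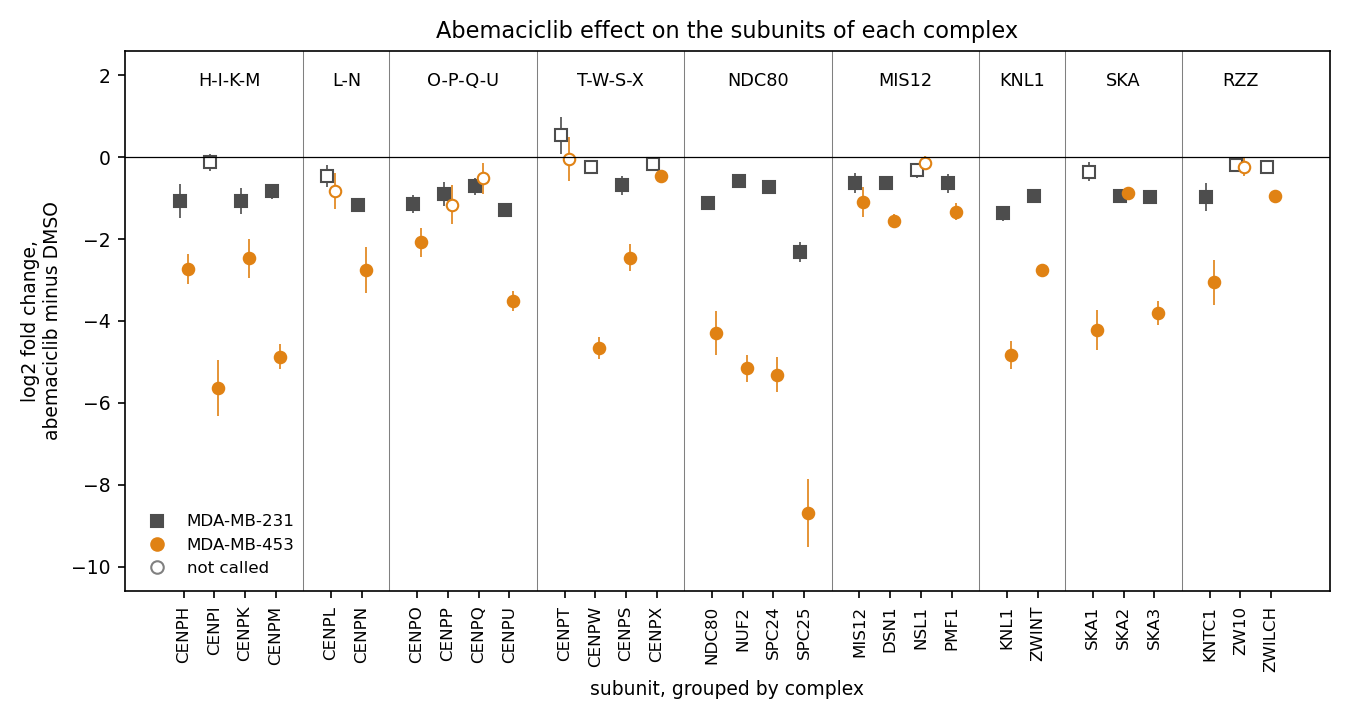
Log2 fold change under abemaciclib minus DMSO of the subunits of 9 complexes, with standard errors as bars, in MDA-MB-231 (squares) and MDA-MB-453 (circles). Open symbols did not pass the test, and the top row names each complex (H-I-K-M and the like are CENP letters, RZZ is the ROD-ZW10-ZWILCH complex, and ROD is encoded by KNTC1). In MDA-MB-453 all subunits of the NDC80 complex lie at -4.30 or below, while the T-W-S-X and SKA complexes hold subunits both above -1 and below -4.

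The SKA complex, which tracks the ends of microtubules, had 2 of 3 subunits lower in MDA-MB-231 and all 3 in MDA-MB-453. SKA2 had log2 fold changes of -0.95 ± 0.10 in the first line and -0.87 ± 0.12 in the second, with a line difference of 0.09 ± 0.15 (adjusted p = 0.774). SKA1 lay at 16.1, 16.7 and 12.7 CPM under DMSO in MDA-MB-453 and at 0.759, 1.09 and 0.301 CPM under abemaciclib (-4.23 ± 0.49, adjusted p = 1.13e-09). In MDA-MB-231 SKA1 lay at 19.2, 22.5 and 25.8 CPM against 15.0, 17.9 and 19.7 CPM, overlapping groups with a value of -0.35 ± 0.23 (adjusted p = 0.243). SKA3 had the largest called change of the complex in MDA-MB-231. It went from 72.2, 90.8 and 88.2 CPM to 53.7, 40.7 and 32.6 CPM there (-0.98 ± 0.15, adjusted p = 1.67e-06), and from 41.8, 42.4 and 43.8 CPM to 0.759, 5.20 and 2.71 CPM in MDA-MB-453 (-3.81 ± 0.30, adjusted p = 1.51e-14). Its abemaciclib libraries were spread widely but stayed below DMSO in both lines.

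The fibrous corona, the outermost layer that captures microtubules before they attach end-on, had 4 of 6 members lower in MDA-MB-231 and 5 of 6 in MDA-MB-453. CENPE, a kinesin that moves chromosomes to the spindle equator, lay at 34.2, 50.1 and 53.5 CPM under DMSO in MDA-MB-453 and at 1.27, 0.274 and 0.301 CPM under abemaciclib. Its log2 fold change was -6.02 ± 0.38 (adjusted p = 6.72e-18), against -0.81 ± 0.13 (adjusted p = 2.76e-06) in MDA-MB-231, where it went from 198, 214 and 210 CPM to 106, 109 and 140 CPM. The CENPE groups did not overlap in either line. CENPF, a large corona protein that binds dynein regulators, had values of -4.69 ± 0.15 and -0.82 ± 0.11. Of the ROD-ZW10-ZWILCH complex, which recruits dynein, KNTC1 fell most. KNTC1 went from 13.1, 10.5 and 11.2 CPM to 7.66, 4.56 and 5.48 CPM in MDA-MB-231 (-0.97 ± 0.34, adjusted p = 0.0257) and from 6.72, 10.4 and 13.0 CPM to 0.506, 0.547 and 2.40 CPM in MDA-MB-453 (-3.06 ± 0.54, adjusted p = 1.17e-05), with no overlap in either line. Without DMSO replicate 1 (-0.87) or abemaciclib replicate 2 (-0.82) or 3 (-0.91), and with DESeq2, the MDA-MB-231 call of KNTC1 was lost. ZW10 did not pass the test in either line, at -0.20 ± 0.17 and -0.24 ± 0.22. ZWILCH passed in MDA-MB-453 alone, at -0.95 ± 0.15 against -0.25 ± 0.11, and its line difference of -0.69 ± 0.18 was called (adjusted p = 0.00272). SPDL1, the dynein adaptor at kinetochores, had values of -0.75 and -1.82.

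CENPV, a protein found at centromeres in mitosis, and CENPJ, which acts in building centrioles, carry the CENP name but belong to none of these complexes. In MDA-MB-231 CENPV lay at 125, 121 and 118 CPM under DMSO and, without overlap, at 66.4, 66.5 and 48.8 CPM under abemaciclib (-1.0 ± 0.13, adjusted p = 7.24e-08). In MDA-MB-453 CENPV lay at 2.34, 6.57 and 1.66 CPM under DMSO and was not tested within that line for its low counts. CENPJ went from 17.1, 16.9 and 17.9 CPM to 5.96, 13.1 and 11.8 CPM in MDA-MB-231 (-0.75 ± 0.28, adjusted p = 0.0349) and from 31.9, 38.6 and 27.1 CPM to 14.9, 17.5 and 16.8 CPM in MDA-MB-453 (-0.90 ± 0.22, adjusted p = 0.00077). All CENPJ levels under the drug were below those of DMSO. The CENPJ call in MDA-MB-231 was lost without any 1 of the DMSO libraries (-0.76 to -0.72), without abemaciclib replicate 1 (-0.48), with DESeq2 and with no filter on low counts.

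Since the lines were grown in different media, line and medium cannot be told apart in comparisons between them. The difference between the lines was tested gene by gene, MDA-MB-231 being subtracted from MDA-MB-453. It was called below 0 for 24 of 41 members and above 0 for 0, where 13.0% of 12750 genes were called below 0, 7.72% above 0 and 20.7% in either direction. Of these members 23 were cell cycle dependent, out of 29, and 1 was constitutive, CENPS, out of 12. The line differences ran from -5.50 for CENPI to -0.69 for ZWILCH, apart from SPC25, whose fitted -6.42 rests on a group at 0 counts, depends on the prior count and has no place in that order. Other members also held few counts under abemaciclib in MDA-MB-453, such as CENPI (2 over the group), CENPA (6) and HJURP (7). Their order among the largest differences is loosely set. The cell cycle dependent members without a called difference were CENPJ, CENPK, CENPL, CENPO, CENPQ and MIS18A, with values between -1.40 and 0.20. The median of all genes for this comparison was -0.07, and -0.142 with mitochondrial genes left out, under which 24 members were called. Of the 40 members tested in both lines, 28 were lower in both, 2 in MDA-MB-231 alone (CENPP, CENPQ), 5 in MDA-MB-453 alone (CENPI, CENPW, CENPX, SKA1, ZWILCH) and 5 in neither (CENPC, CENPL, CENPT, NSL1, ZW10). Across these 40 genes the log2 fold changes of the lines had a Pearson r of 0.50 and a Spearman rho of 0.43, a description only, since the genes share libraries.

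**Figure D5:**
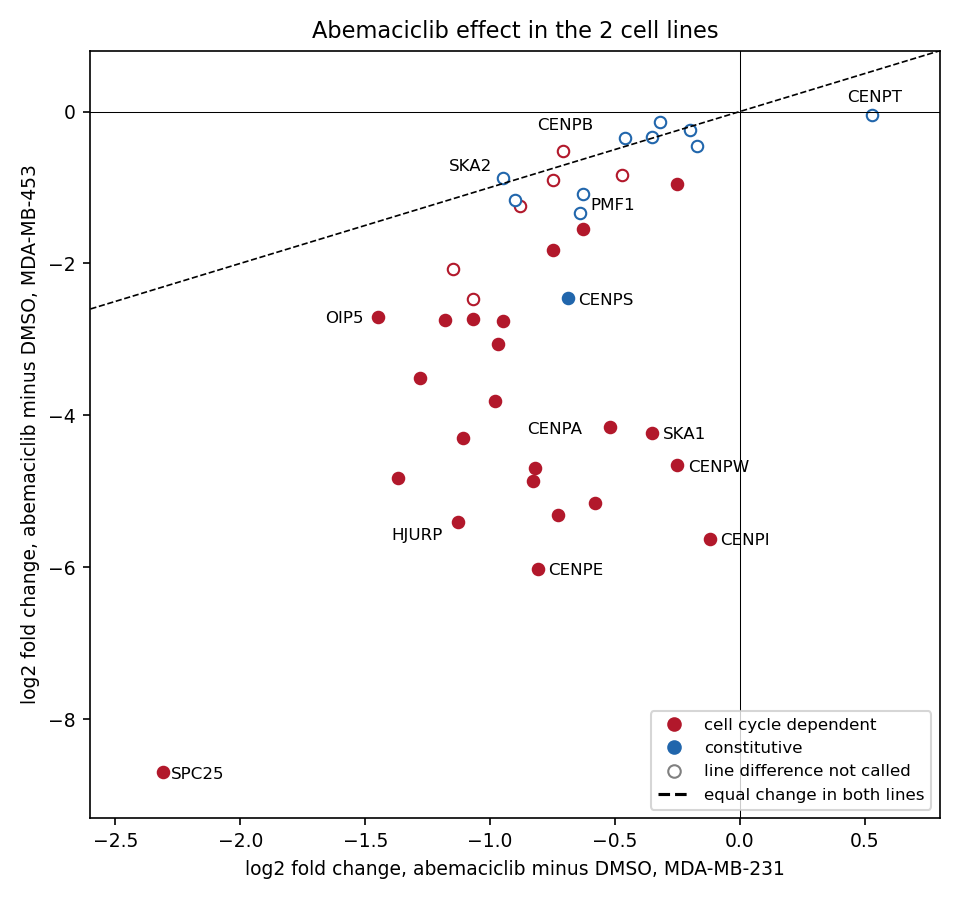
Log2 fold change under abemaciclib minus DMSO in MDA-MB-231 (horizontal) and MDA-MB-453 (vertical) for the 40 members tested in both lines. Filled points had a called line difference, red marks cell cycle dependent and blue constitutive members, and the dashed line marks equal change. Among constitutive members CENPS alone had a called difference, and 28 of 29 cell cycle dependent members lie below it.

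The lines, each in its own medium, already differed under DMSO. In MDA-MB-453 minus MDA-MB-231, 25 members were called lower and 7 higher, where 35.6% of 12750 genes were called lower, 34.3% higher and 69.8% in either direction. CENPN (-2.94), NDC80 (-2.80), CENPQ (-2.29), SPDL1 (-2.22) and CENPE (-2.10) were among the lower cell cycle dependent members. CENPV, among those called lower, had the largest fitted difference, -5.02 ± 0.29. It passed the low-count filter only through its counts in MDA-MB-231, the line where it is high, so this call is no independent support. Within MDA-MB-453 its counts were too low to be tested. CENPX was higher in MDA-MB-453 by 1.33 ± 0.12 (adjusted p = 2.94e-14), as were CENPH (1.14), CENPJ (0.97), PMF1 (0.96), CENPM (0.51), NSL1 (0.47) and CENPB (0.36). CENPA (-1.71) and HJURP (-1.74) were both lower, whereas CENPW (-0.08) and OIP5 (0.07) did not pass the test. Among the higher members, leaving out 1 library ended the calls of CENPB (MDA-MB-231 replicate 1 or MDA-MB-453 replicate 3, 0.27 to 0.28), CENPH (MDA-MB-231 replicate 3, 0.76), CENPM (MDA-MB-453 replicate 3, 0.45) and NSL1 (MDA-MB-231 replicate 3 or MDA-MB-453 replicate 1 or 2, 0.35 to 0.42). Among the lower ones it ended those of ZWINT (MDA-MB-231 replicate 2, -0.27, or MDA-MB-453 replicate 3, -0.22) and CENPF (the same libraries, -0.29 and -0.28).

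In the number of members called lower than under DMSO, the combination was close to abemaciclib alone. Against DMSO, which the abemaciclib comparison shares, 28 members were lower in MDA-MB-231, where 18.3% of genes were called lower and 35.4% in either direction, and 34 of 40 were lower in MDA-MB-453, where 20.0% and 37.6% were. No member was called higher. The medians of the cell cycle dependent and constitutive members were -1.03 and -0.41 in MDA-MB-231 and -3.61 and -0.45 in MDA-MB-453. CENPA and HJURP held 1 count each over the combination libraries of MDA-MB-453, against 116 and 321 under DMSO, a ratio of 111 (95% counting interval 19.6 to 4429) for CENPA and of 308 (54.8 to 12189) for HJURP. CENPT lay at 7.31, 4.06 and 9.19 CPM in these libraries, a log2 fold change of 1.09 ± 0.51 that did not pass the test (adjusted p = 0.0869).

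Combination and abemaciclib were also compared directly. In MDA-MB-231, 0 members were called, by edgeR and by DESeq2, and 6 had an unadjusted p below 0.05, where 0.0177% of genes were called lower, 0.00884% higher and 0.0265% in either direction. In MDA-MB-453, 1 member was called lower, where 1.21% of genes were called lower, 1.25% higher and 2.46% in either direction. This was CENPQ, at 7.59, 2.74 and 6.91 CPM under abemaciclib and 2.44, 1.16 and 1.28 CPM under the combination, with 63 and 16 counts over the groups (-1.93 ± 0.49, adjusted p = 0.0217). The CENPQ call was lost without abemaciclib replicate 1 (-1.70) or 3 (-1.76) and without combination replicate 2 (-1.75) or 3 (-1.78), and DESeq2 gave it no adjusted p. CENPI lay at 1.04, 0.869 and 2.30 CPM under the combination, above all abemaciclib libraries (0 to 0.301 CPM), with a difference of 2.69 ± 0.92 that did not pass the test (adjusted p = 0.11). A low-count filter on only the groups compared kept 24 members in MDA-MB-453. The others, CENPQ among them, were tested through their counts under DMSO or fulvestrant. Where both groups held few or no counts, as with SPC25, a difference could hardly be called, so the lack of calls does not show equal levels.

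Fulvestrant alone moved few of these transcripts. In MDA-MB-231, 0 members and 0% of genes were called by edgeR, 0 members were called by DESeq2, and 2 members had an unadjusted p below 0.05. CENPA lay at 46.8, 55.4 and 50.9 CPM under fulvestrant, all above the 34.1 to 39.4 CPM under DMSO, with a log2 fold change of 0.46 ± 0.18 and an adjusted p of 0.566. Of all genes tested in this line, 5.2% likewise lay wholly above DMSO. In MDA-MB-453 the only member called was CENPF, in the opposite direction to its fall under abemaciclib, where 1.01% of genes were called higher, 0.397% lower and 1.41% in either direction. CENPF lay at 363, 315 and 303 CPM under DMSO and at 504, 555 and 380 CPM under fulvestrant, groups that did not overlap (0.50 ± 0.11, adjusted p = 0.00759). In MDA-MB-453, 10.9% of all genes tested lay wholly above DMSO under fulvestrant. The CENPF call was lost without DMSO replicate 2 (0.46) or 3 (0.46) and without fulvestrant replicate 1 (0.46) or 2 (0.38). The median fitted value of the 29 cell cycle dependent members was 0.13 in MDA-MB-453, beside -0.02 for all genes tested. In MDA-MB-231 it was -0.02, beside 0. Of these 29 members, 1 and 0 were called. The members share libraries, so these medians are a description only. The ratio of the class sums was 2.51 ± 0.36 under fulvestrant in MDA-MB-453, and its libraries, at 2.13 to 2.85, reached down to the highest DMSO library.

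Other kinetochore and checkpoint genes were read from a list of 24, of which 23 were tested. Under abemaciclib 17 were lower in MDA-MB-453 and 15 in MDA-MB-231, and 0 were higher, with medians of -2.19 and -0.55. Of all genes tested, 19.4% and 16.9% were called lower in these lines, and 36.0% and 33.7% in either direction. In MDA-MB-453 the largest changes were those of PLK1 (-8.19 ± 0.27, from 1624 to 5 counts over the groups), the mitotic kinase, and BIRC5 (-5.68 ± 0.25), which encodes survivin of the chromosomal passenger complex. The smallest were those of ITGB3BP (-0.03 ± 0.31), a CCAN subunit also called CENPR, and AHCTF1 (0.09 ± 0.13), a nucleoporin found at kinetochores. Neither passed the test.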

How the data were processed

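Per the file headers and the labels, the deposited table holds raw gene counts, whole numbers per gene symbol that the authors made from QuantSeq 3′ FWD reads with STAR on hg38 and featureCounts on GENCODE 35. Strand setting, multimapping and duplicate handling are not given in the sources used here, so intervals and floors cover counting error only. Of the rows, 1 names no gene and holds 0 counts.

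Tests used edgeR 4.0.16 under R 4.3.3 (filterByExpr, TMM, quasi-likelihood F-test, 2-sided), within each line on 12 libraries and on all 24 for differences between lines. Standard errors are the absolute log2 fold change over the square root of F. The low-count filter kept all 41 members in the first line and 40 in MDA-MB-453, some of the latter, such as SPC25, through the groups without abemaciclib. DESeq2 1.42.0 (the study's tool), other scaling, no filter, fewer groups, single libraries left out and a replicate block were alternatives. The scripts were tested on simulated data. Positions and shared exons came from GENCODE 44 on the same build. Every member may be named. Values in every library are given for CENPA, CENPB, CENPC, CENPT and CENPW, for the called member with the largest abemaciclib change of each role and line, for a member called against its class and for members at 0 in a group; CENPS, CENPX and CENPQ were added after their values were seen. Members, classes, complexes, lists and tests were chosen with earlier results of these data known.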

Additional observations from a re-analysis of the deposited data

Results flagged for a closer look

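The abemaciclib effect differed between the lines, by the test of the difference itself, for 24 members, all with a lower value in MDA-MB-453. Of all genes tested, 13.0% were called lower there in this comparison and 20.7% were called in either direction. Adjusted p values (edgeR) of the 24 members lay between 3.66e-20 and 0.0441. Among CENPA and its loading factors the differences on the log2 scale were -3.62 for CENPA, -4.26 for HJURP and -1.25 for OIP5. In the CCAN they were -5.50 for CENPI, -4.40 for CENPW, -4.03 for CENPM, -2.22 for CENPU, -1.76 for CENPS, -1.65 for CENPH and -1.56 for CENPN. In the KMN network they were -6.42 for SPC25, -4.58 for NUF2, -4.57 for SPC24, -3.45 for KNL1, -3.19 for NDC80, -1.80 for ZWINT and -0.91 for DSN1. SKA1 and SKA3 had differences of -3.87 and -2.82. In the corona they were -5.20 for CENPE, -3.86 for CENPF, -2.09 for KNTC1, -1.06 for SPDL1 and -0.69 for ZWILCH. The value of SPC25 rests on 0 counts under abemaciclib in MDA-MB-453 and depends on the prior count, and that of CENPI rests on 2 counts there. The calls of OIP5 and CENPH were lost without any 1 of 5 and of 7 libraries, and those of CENPN and KNTC1 without abemaciclib replicate 3 and 1 of MDA-MB-453.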

How the results depend on the processing

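No called member changed direction under any alternative run. Leaving out 1 library gave, for MDA-MB-231 and MDA-MB-453 in turn, 23 to 30 and 31 to 32 members called under abemaciclib, 27 to 29 and 33 under the combination, 0 to 2 under fulvestrant in either line, 0 and 0 to 2 for the combination minus abemaciclib, 22 to 24 for the line difference and 28 to 32 under DMSO. Medians then lay between -0.92 and -0.79 (MDA-MB-231) and -3.73 and -3.28 (MDA-MB-453) for cell cycle dependent members, and between -0.59 and -0.42 and -0.65 and -0.46 for constitutive ones. A further threshold of 1 on the absolute log2 fold change left 11 members called under abemaciclib in MDA-MB-231, 0 under fulvestrant in MDA-MB-453 and 18 under DMSO. For the combination minus abemaciclib in MDA-MB-453, 0 members were called by DESeq2, which gave CENPQ no adjusted p, and 0 in a fit of only the groups compared, which did not test CENPQ. With members of a less sure class left out, the cell cycle dependent medians were -0.95 and, in the epithelial line, -4.23. The cause was not tested beyond these constructions. Samples with the same replicate number did not deviate together (18 pairs a line, correlations of -0.09 to 0.04 and -0.06 to 0.04), and with a replicate block 29 members of MDA-MB-231 were called under abemaciclib and 33 in the other line. Genes with few counts, such as CENPT, limit what can be detected.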
